A study of Mus musculus with 24 samples.

Results

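Untreated bone marrow macrophages of 2 mouse lines that carry no Cre were compared: 3 libraries from Smad3 floxed mice (genotype Smad3 fl/fl) and 3 from Smad2 floxed mice (Smad2 fl/fl). These 6 libraries were chosen by genotype and treatment alone from the 24 of the study. The study compares each floxed line with its LyzM-Cre knockout, called MyS2KO and MyS3KO, with and without TGF-β1 at 10 ng/ml for 4 hours. All mice were 2 to 3 months old and labelled C57BL/6, and all cells were grown from tibial marrow with WEHI-3 conditioned medium as the source of IL-3 and with CSF-1, first at 12 and then at 120 ng/ml, before about 16 hours without serum. The floxed groups were labelled untreated and received no TGF-β1. Both lines carry their floxed allele in every cell, so neither group is wild type, and LyzM-Cre, which is driven by the lysozyme gene Lyz2, is absent from both. The 2 lines differ in more than the floxed gene, and line, litter, culture and genetic background cannot be told apart in this comparison. The labels do not say whether the 3 libraries of a group came from separate animals. The p-values therefore measure only the spread between libraries within groups, which the main fit shares over all 8 groups of the study.

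TGF-β binds a receptor pair that phosphorylates Smad2 and Smad3, which join Smad4 and act on transcription in the nucleus. A floxed allele holds recombination sites around part of a gene and is meant to work like the normal gene until Cre removes that part. Macrophages grown from marrow with CSF-1 are adherent phagocytes that express lysozyme, lysosomal enzymes and scavenger receptors, and that make inflammatory mediators when stimulated.

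The untreated Smad3 floxed libraries differed widely from the Smad2 floxed ones. With edgeR's quasi-likelihood test and Benjamini-Hochberg adjustment, 4754 of 14261 tested genes (33.3%) passed an adjusted p of 0.05. Of these, 2525 (17.7% of tested genes) were higher and 2229 (15.6%) were lower in the Smad3 floxed libraries. A change of at least 2-fold was called for 1346 genes that were higher (9.44%) and 829 that were lower (5.81%), 2175 (15.3%) in all. The median log2 change over all tested genes was 0.07, and it was 0.19 when libraries were scaled by their totals alone, which called 2985 genes higher and 1686 lower. All 3 libraries of 1 group lay above all 3 of the other for 5470 genes (38.4%). In a fit of these 6 libraries alone, 2212 genes were called. That fit also differs in its filter, its scaling and its residual degrees of freedom.

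**Figure D1:**
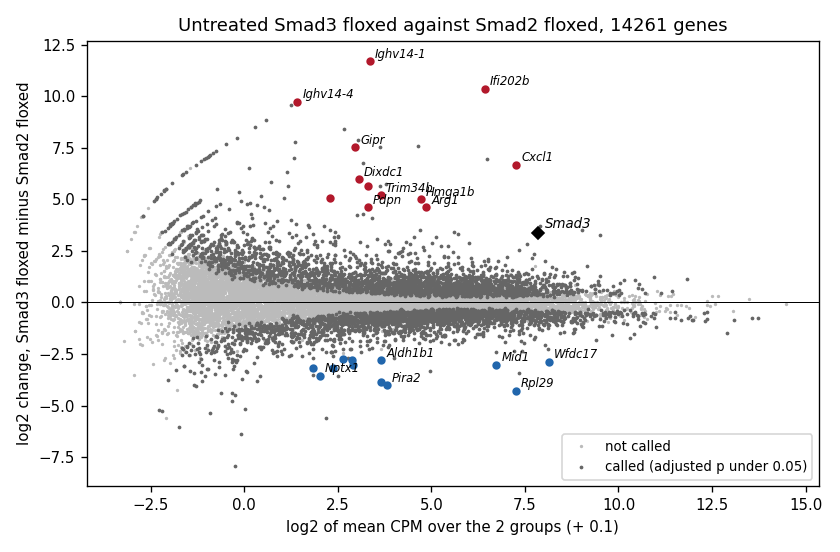
Log2 change of each tested gene (vertical axis, Smad3 floxed minus Smad2 floxed, untreated) against the log2 of its mean CPM (horizontal axis). Grey points are not called, dark points are called, red and blue points are the 12 named genes that rose most and the 12 that fell most (8 of them without a label), and the black diamond is Smad3 at 3.35.

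The 6 libraries held 21039742 to 24918582 counted reads. Smad3 floxed library 3 stood apart from its group: on the first principal component, with 60.4% of the variance, the Smad2 floxed libraries lay at -37.5, -69.8 and -48.5, Smad3 floxed libraries 1 and 2 at 67.7 and 78.5, and library 3 at 9.59. Reads of cytosolic ribosomal protein genes made up 2.12 ± 0.09% (SD, n = 3) of the Smad2 floxed and 1.15 ± 0.29% of the Smad3 floxed libraries, and mitochondrial transcripts 0.963 ± 0.154% and 0.644 ± 0.00424%. Neither share overlapped between the groups (exact permutation test, two-sided p = 0.1, the smallest that 3 against 3 can give). The part of these shares in the results below was not tested. The 4 Y-linked genes looked at summed to at most 0.45 CPM in any of the 6 libraries.

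The gene with the smallest adjusted p among the SMAD and receptor genes was Smad3 itself (ENSMUSG00000032402, chr9:63646767-63757994, mm10, minus strand). Smad3 stood at 40.6, 45.8 and 38 CPM (counts per 1e+06 reads, scaled by TMM factors) in Smad2 floxed libraries 1, 2 and 3, and at 443, 459.7 and 369 CPM in the Smad3 floxed libraries. The groups did not overlap, and the log2 change was 3.35 ± 0.15, adjusted p = 7.09e-13. Smad2 (ENSMUSG00000024563) was at 45.4, 39.6 and 41.5 CPM against 44.7, 42.4 and 48.4 CPM, with overlapping groups and a log2 change of 0.10 ± 0.12, adjusted p = 0.536. Compared per gene length in the deposited FPKM, Smad2 and Smad3 were close in the Smad2 floxed libraries (26.7 ± 3.67 and 27.2 ± 2.47 FPKM, SD, n = 3), while in the Smad3 floxed libraries Smad3 was at 304 ± 59.6 and Smad2 at 30.8 ± 2.4 FPKM. The higher Smad3 level was also found in the other libraries of that line, with a log2 difference from the matching Smad2 libraries of 2.86 under TGF-β1, 2.56 between untreated knockouts (MyS3KO libraries 209, 181 and 161 CPM) and 2.44 between treated knockouts.

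Of 16 tested SMAD and receptor genes, 4 were called higher, 1 lower and 11 passed in neither direction. The share called (31.2%) was close to the 33.3% of all genes, and their median log2 change was -0.01. Besides Smad3, the type I receptor Tgfbr1 rose, from 19.5, 8.42 and 13.5 to 42.8, 37.9 and 22.7 CPM (log2 1.31 ± 0.29, adjusted p = 0.00161). Smad5, which carries BMP signals, rose by a log2 of 0.58 ± 0.14, and the activin receptor Acvr2a by 0.93 ± 0.33 with overlapping groups. Endoglin (Eng), a co-receptor, fell from 107, 135 and 112 to 35.9, 42.7 and 72.4 CPM (log2 -1.23 ± 0.22, adjusted p = 0.000207), and library 3 was again the nearest to the other line. Tgfbr2, the type II receptor, had a log2 difference of -0.24, Smad4 of 0.06 and the inhibitory Smad7 of -0.62, none of them called.

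Among 22 tested feedback and target genes of TGF-β signalling, 11 were higher, 2 lower and 9 not called, with a median log2 change of 0.51 beside 0.07 for all genes. This is 59.1% called, beside 33.3% of all genes. Thrombospondin 1 (Thbs1), a matrix protein able to activate latent TGF-β, was at 102, 139 and 168 CPM in the Smad2 floxed and 1848, 1608 and 518 CPM in the Smad3 floxed libraries (log2 3.28 ± 0.48, adjusted p = 4.2e-05). Its lowest Smad3 floxed value was that of library 3, still above all Smad2 floxed values. The SMAD co-repressor Skil rose from 131, 96.3 and 144 to 281, 385 and 193 CPM (log2 1.21 ± 0.23, adjusted p = 0.000447). Klf10, Id2 and the cell cycle inhibitor Cdkn2b rose by 1.29 ± 0.23, 1.5 ± 0.23 and 1.55 ± 0.24 on the log2 scale. The 2 that fell were Ltbp3, a latent TGF-β binding protein (29, 29.9 and 26.9 against 3.43, 6.57 and 18.4 CPM, log2 -1.6 ± 0.40), and the matrix protein Tgfbi (log2 -1.40 ± 0.22). Pmepa1 and Bambi, commonly used as TGF-β targets, had log2 differences of -0.47 and 0.42 and were not called. Leaving out 1 library at a time gave 7 to 11 members higher, the fewest without Smad2 floxed library 3.

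The promoters of 3 neutrophil-attracting chemokines on chromosome 5 are shown because these genes rose together and hold the same 10 letters. RefSeq sequence (GRCm38.p6, from 250 bases before to 50 after the start) is printed for Cxcl1 at chr5:90890995-90891294 (plus strand), Cxcl2 at chr5:90903649-90903948 (plus strand) and Cxcl3 at chr5:90785851-90786150 (plus strand). Capitals mark the only match to a κB motif, GGGA then any base then TTTCC, searched on both strands.
Cxcl1: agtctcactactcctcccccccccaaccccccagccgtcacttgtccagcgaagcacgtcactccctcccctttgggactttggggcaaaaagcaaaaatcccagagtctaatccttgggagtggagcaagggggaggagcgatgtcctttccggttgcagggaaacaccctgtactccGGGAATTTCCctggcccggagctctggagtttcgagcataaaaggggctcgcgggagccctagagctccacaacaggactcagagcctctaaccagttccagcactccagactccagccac
Cxcl2: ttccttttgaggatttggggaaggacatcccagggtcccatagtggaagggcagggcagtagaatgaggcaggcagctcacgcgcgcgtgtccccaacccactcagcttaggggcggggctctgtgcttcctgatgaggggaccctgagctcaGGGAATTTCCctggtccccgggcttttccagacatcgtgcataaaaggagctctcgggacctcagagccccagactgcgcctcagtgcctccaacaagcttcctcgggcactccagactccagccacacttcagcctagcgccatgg
Cxcl3: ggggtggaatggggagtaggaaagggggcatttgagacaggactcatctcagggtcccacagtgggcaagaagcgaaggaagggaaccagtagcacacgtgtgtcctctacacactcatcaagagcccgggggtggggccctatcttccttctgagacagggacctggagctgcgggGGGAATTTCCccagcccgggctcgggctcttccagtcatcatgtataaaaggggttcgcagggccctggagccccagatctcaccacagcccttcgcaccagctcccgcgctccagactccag

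These letters occur in 0.411% of all 32851 RefSeq promoters of this length. Among 14 promoters of the chemokine list 3 held them, and these were Cxcl1, Cxcl2 and Cxcl3, the 3 chemokines that rose. These 3 were picked for rising and for holding the letters, so the count is a description. They also lie close together on chromosome 5 and may not be 3 separate cases. In the list of inflammatory mediators Il6, Csf1 and Nfkbia held them, of which Il6 was called higher. The promoters of Il1a, Il1b, Ptgs2, Ptges, Tnf and Tnfaip3, which also rose, did not hold these letters in this window. A match describes the sequence and shows no binding.

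Cxcl1 was at 2.39, 1.64 and 4.98 CPM in the Smad2 floxed and at 454, 338 and 123 CPM in the Smad3 floxed libraries (log2 6.67 ± 0.57, adjusted p = 5.84e-08). Cxcl2 went from 30.3, 37.8 and 71.8 to 413, 410.1 and 171 CPM (log2 2.83 ± 0.38, adjusted p = 1.66e-05), and Cxcl3 from 0.477, 0.635 and 1.35 to 34.5, 9.0 and 1.97 CPM (log2 4.23 ± 0.87, adjusted p = 0.00111). In all 3 genes the groups did not overlap and library 3 was the lowest of its group. The chemokines did not move as one group: of 18 tested, 3 were higher, 4 lower and 11 not called, with a median of -0.58. The share called was 38.9%, beside 33.3% of all genes. Ccl6 fell from 270.1, 304 and 291 to 32.6, 26.8 and 113 CPM (log2 -2.33 ± 0.41, adjusted p = 0.000256), and Ccl9 from 1645, 2246 and 1957 to 389, 421 and 936 CPM (log2 -1.74 ± 0.28, adjusted p = 8.57e-05). The monocyte-attracting Ccl8 (log2 -1.30 ± 0.41) and platelet factor Pf4 (log2 -0.95 ± 0.24) fell as well. Ccl2, Ccl3, Ccl4 and Ccl5 had log2 differences of 0.10, -0.73, -0.79 and -0.96 and were not called.

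Inflammatory cytokines and mediators were higher where they were called: 9 of 16 tested genes rose, none fell and 7 were not called, with a median log2 change of 0.98. In all 56.2% were called, beside 33.3% of all genes. Cyclooxygenase 2 (Ptgs2), which starts prostaglandin synthesis, was at 86.8, 52.5 and 117 CPM against 1341, 1245 and 312 CPM (log2 3.50 ± 0.51, adjusted p = 4.8e-05). The prostaglandin E synthase Ptges followed, from 4.81, 6.04 and 8.19 to 48.8, 30.6 and 12.1 CPM (log2 2.27 ± 0.42, adjusted p = 0.000377). Both enzymes were lowest in library 3 of their group, without overlap with the Smad2 floxed libraries. Interleukin 1β (Il1b) went from 8.19, 19.2 and 18.7 to 198, 103 and 39.4 CPM (log2 2.89 ± 0.53, adjusted p = 0.00039), and Il1a from 0.0795, 0 and 0.156 to 8.09, 3.92 and 0.657 CPM (log2 5.64 ± 1.01, adjusted p = 0.000282). Il6 was at 1.15, 0.583 and 0.985 against 15.2, 12.7 and 1.13 CPM, so that library 3 fell inside the Smad2 floxed range (log2 3.39 ± 0.78, adjusted p = 0.00251). The granulocyte growth factor Csf3 (log2 4.07 ± 1.12), Tnf (log2 1.11 ± 0.35), the feedback inhibitor Tnfaip3 (log2 1.10 ± 0.25) and the NF-κB cofactor Nfkbiz (log2 0.84 ± 0.12) also rose. Il10, Nos2 and Socs3 had log2 differences of 0.04, 0.87 and -0.13 and were not called. Of the 9 that rose, 7 were also called higher between the TGF-β1-treated floxed groups and none between the untreated knockouts. Of all genes called higher between the untreated floxed groups, 55.2% and 13% were called higher in these comparisons.

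**Figure D2:**
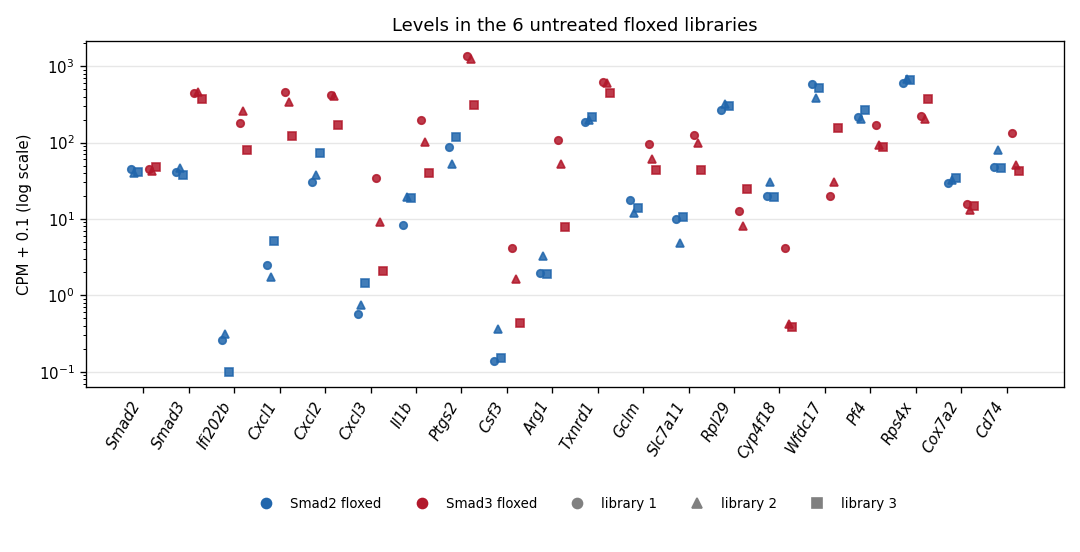
Level of 20 genes in each of the 6 libraries (vertical axis, CPM + 0.1, log scale). Blue is Smad2 floxed, red is Smad3 floxed, and circles, triangles and squares are libraries 1, 2 and 3. Smad3 floxed library 3 lies nearest to the Smad2 floxed libraries for Cxcl1, Ptgs2, Arg1 and Wfdc17, while Smad2 is level in all 6.

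Antioxidant genes known as targets of the transcription factor NRF2 form a second group. The promoters of 3 that rose are shown for a match to the core letters of the antioxidant response element. They are RefSeq promoters of Gclm at chr3:122245307-122245606 (plus strand), Txnrd1 at chr10:82858956-82859255 (plus strand) and Srxn1 at chr2:152105274-152105573 (plus strand), all GRCm38.p6. Capitals mark the core TGACNNNGC or its reverse complement, searched on both strands, and Txnrd1 has 3 listed starts, of which the one with a match is shown.
Gclm: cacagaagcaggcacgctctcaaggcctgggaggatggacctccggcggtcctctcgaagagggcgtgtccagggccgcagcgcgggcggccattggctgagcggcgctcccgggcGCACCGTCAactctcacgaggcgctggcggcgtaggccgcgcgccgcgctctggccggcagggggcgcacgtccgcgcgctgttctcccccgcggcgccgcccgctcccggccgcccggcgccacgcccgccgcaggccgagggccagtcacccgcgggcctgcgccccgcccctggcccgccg
Txnrd1: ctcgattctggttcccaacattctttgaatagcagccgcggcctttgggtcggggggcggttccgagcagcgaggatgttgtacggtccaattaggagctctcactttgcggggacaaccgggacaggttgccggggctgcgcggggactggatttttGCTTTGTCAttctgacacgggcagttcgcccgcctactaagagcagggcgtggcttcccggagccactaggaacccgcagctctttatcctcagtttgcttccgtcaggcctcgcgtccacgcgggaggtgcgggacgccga
Srxn1: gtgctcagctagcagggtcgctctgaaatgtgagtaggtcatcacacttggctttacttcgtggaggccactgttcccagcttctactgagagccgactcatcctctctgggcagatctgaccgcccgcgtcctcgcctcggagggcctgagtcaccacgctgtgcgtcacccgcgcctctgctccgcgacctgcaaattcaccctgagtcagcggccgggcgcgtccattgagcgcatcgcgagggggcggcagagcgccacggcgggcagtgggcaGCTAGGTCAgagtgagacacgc

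The core occurs in 12.4% of all 32851 promoters and in 8 of the 15 genes of the NRF2 list that have a promoter in the table. Of those 8 genes, Gclm, Txnrd1, Srxn1 and Me1 rose, G6pdx fell, and Gsta3, Prdx1 and Sod1 were not called, while Slc7a11 and Cat rose without the core in a window of this length. Gclc, Gsr and Hmox1, which also rose, had no promoter to search. The promoters shown were picked for rising and for the match, and a match shows no binding.

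Of 18 tested members of the NRF2 list, 9 were higher, 1 lower and 8 not called (median log2 change 0.76), so 55.6% were called beside 33.3% of all genes. The cystine importer Slc7a11 went from 9.9, 4.77 and 10.4 to 126, 97.4 and 43.8 CPM (log2 3.41 ± 0.39, adjusted p = 2.25e-06). Both subunits of the enzyme that starts glutathione synthesis rose, Gclm from 17.7, 11.7 and 13.6 to 94.5, 60.6 and 43.2 CPM (log2 2.20 ± 0.22, adjusted p = 2.42e-07) and Gclc from 9.58, 4.92 and 11.1 to 46.1, 31.2 and 22.7 CPM (log2 1.96 ± 0.29, adjusted p = 3.19e-05). Glutathione reductase (Gsr), on chromosome 8, rose from 34.2, 35.5 and 33.1 to 199, 129 and 117 CPM (log2 2.12 ± 0.21, adjusted p = 2.92e-07) and thioredoxin reductase (Txnrd1) from 184, 195 and 212 to 622, 599 and 444 CPM (log2 1.49 ± 0.16, adjusted p = 5.87e-07). The groups did not overlap for any of these 5 genes. Heme oxygenase (Hmox1), Srxn1 and catalase (Cat) rose by 1.04 ± 0.17, 1.14 ± 0.18 and 1.0 ± 0.22 on the log2 scale. Nqo1, Prdx1 and Gstm1 had log2 differences of 0.06, 0.39 and -0.00 and were not called. The autophagy receptor Sqstm1, one of the 10 genes with the largest difference in CPM, rose from 1672, 2418 and 2707 to 4375, 5254 and 5269 CPM (log2 1.13 ± 0.25, adjusted p = 0.00173).

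Genes of glycolysis and of the hypoxia response were mostly higher: 14 of 23 tested rose, 1 fell and 8 were not called, with a median of 0.56. This is 65.2% called, beside 33.3% of all genes. Hexokinase 2 (Hk2) went from 180.1, 181 and 178 to 461, 471 and 435 CPM (log2 1.34 ± 0.12, adjusted p = 8.71e-08) and the glucose importer Slc2a1 from 215, 321 and 279 to 644, 698 and 584 CPM (log2 1.24 ± 0.16, adjusted p = 9.07e-06). For both, Smad3 floxed library 3 lay with libraries 1 and 2. Egln3, an oxygen-sensing hydroxylase, rose by 2.88 ± 0.37, the oxidoreductase Ero1l by 2.02 ± 0.22 and the mitophagy receptor Bnip3 by 1.42 ± 0.19 on the log2 scale. Gapdh, Pgk1 and Tpi1 rose by 0.56 ± 0.14, 0.65 ± 0.12 and 0.56 ± 0.14, and Car9, a carbonic anhydrase, changed by -0.77 ± 0.23. In the untreated knockout libraries 9 of the 15 called members were called in the same direction. The same held for 13% of all genes called higher between the floxed groups and for 8.7% of those called lower. Of all tested genes, 5.96% were called there in either direction. The 6 libraries alone called 7 of these genes higher.

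Iron and heme genes were split, with 4 higher, 3 lower and 6 not called of 13 (median -0.07), so 53.8% were called beside 33.3% of all genes. The iron exporter Slc40a1 rose from 22.7, 13.6 and 20.2 to 127, 88.5 and 44.2 CPM (log2 2.19 ± 0.29, adjusted p = 1.01e-05) and the transferrin receptor Tfrc from 139, 106 and 105 to 273, 216 and 206 CPM (log2 0.99 ± 0.25, adjusted p = 0.00471). The ferritin light chain Ftl1 changed by -0.50 ± 0.19. Of 20 integrated stress and unfolded protein genes, 6 rose and none fell (median 0.19), led by Slc7a11 and with Psat1 (log2 0.95 ± 0.18), while Atf4 and Ddit3 were not called. The share called in that list was 30%, beside 33.3% of all genes. Of 14 heat shock genes 6 rose and 3 fell, with a median of 0.65, so 64.3% were called beside 33.3% of all genes. The abundant chaperone Hspa8 fell from 4659, 5731 and 5129 to 2269.8, 2386 and 3885 CPM (log2 -0.86 ± 0.17, adjusted p = 0.000681), and Hsph1 rose by 1.04 ± 0.23. Without Smad3 floxed library 2, 3 heat shock genes were called higher. The iron list gave 1 lower without Smad2 floxed library 2 or Smad3 floxed library 1 and 5 lower without Smad3 floxed library 3.

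**Figure D3:**
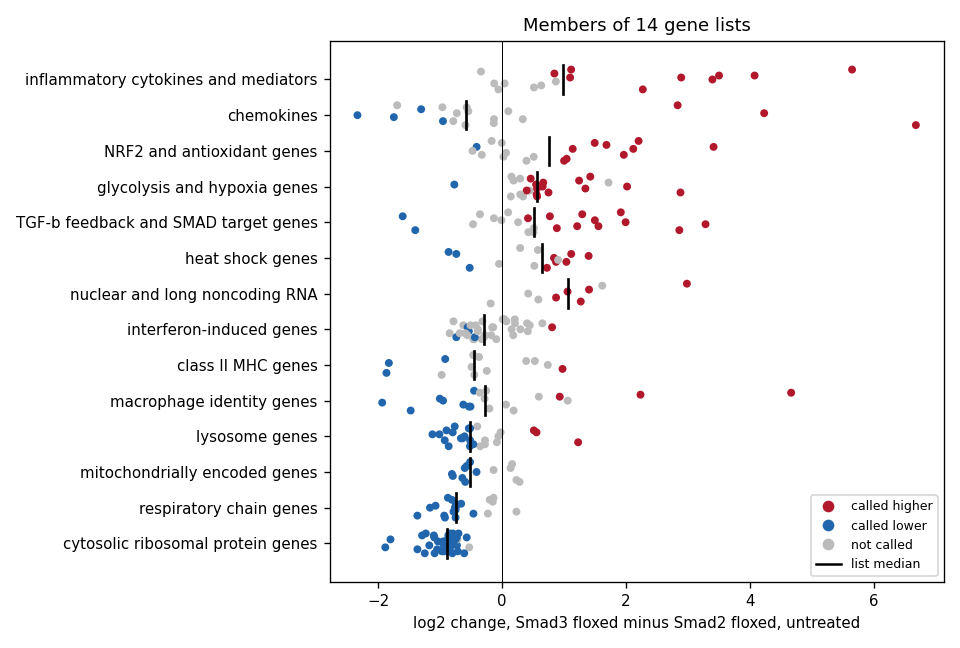
Log2 change of every tested member of 14 gene lists (horizontal axis, Smad3 floxed minus Smad2 floxed, untreated). Each point is a gene, red called higher, blue called lower and grey not called, and the black bar is the list median, which runs from 0.98 for inflammatory mediators and 1.06 for nuclear RNA to -0.88 for ribosomal proteins.

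Ribosomal protein genes were lower as a group. Of 44 cytosolic ribosomal protein genes 42 fell, none rose and 2 were not called, with a median log2 change of -0.88, against 15.6% of all genes called lower. Rps4x was at 602, 669 and 663 CPM against 219.6, 201 and 371 CPM (log2 -1.29 ± 0.18, adjusted p = 1.74e-05), and Rplp0 at 887, 1219.7 and 1038 against 242, 204 and 458 CPM (log2 -1.80 ± 0.24, adjusted p = 1.17e-05). Library 3 lay between the other Smad3 floxed libraries and the Smad2 floxed ones in both. With any 1 library left out, 29 to 44 were called lower, and 28 in the 6 libraries alone. Between the treated floxed groups 41 of the 42 were also called lower, and between the untreated knockouts none was. For all genes called lower between the untreated floxed groups these shares were 66% and 8.7%. Rpl29, outside that list of 44, had the deepest fall among genes with at least 5 CPM in the higher group, from 263, 317 and 298 to 12.4, 8.06 and 24.8 CPM (log2 -4.28 ± 0.52, adjusted p = 6.32e-06). Rpl29 has near-identical copies elsewhere in the genome, so its reads may be shared.

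Respiratory chain genes of the nucleus moved the same way, with 15 of 20 lower, none higher and 5 not called (median -0.75). This is 75% called, beside 33.3% of all genes. Cox7a2, a subunit of complex IV, went from 29.8, 32.4 and 34.4 to 15.4, 13.1 and 14.6 CPM (log2 -1.16 ± 0.13, adjusted p = 9.03e-07), and Cox4i1 from 305, 397 and 353 to 133, 125 and 244 CPM (log2 -1.07 ± 0.21, adjusted p = 0.000761). Uqcrc2, Cyc1 and Ndufa4 changed by -1.37 ± 0.23, -0.93 ± 0.23 and -0.92 ± 0.16. Of the 13 protein-coding genes of the mitochondrial genome 8 fell and none rose (median -0.52), so 61.5% were called. mt-Co1 fell from 7186, 6527 and 6460.2 to 3335, 3719 and 4588 CPM (log2 -0.79 ± 0.14, adjusted p = 0.000218), with no overlap. None of the 8 was called between the treated floxed groups (66% of all lower genes were), where mt-Co1 had a log2 difference of -0.17. Without Smad2 floxed library 1, which had the highest mitochondrial share, 4 were called, and 5 with scaling by totals.

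Lysosomal genes were mostly lower. Of 25 lysosome genes 15 fell, 3 rose and 7 were not called (median -0.52), so 72% were called beside 33.3% of all genes. The membrane protein Lamp1 went from 2131, 2117 and 2047 to 726, 718 and 1448 CPM (log2 -1.12 ± 0.19, adjusted p = 0.000154) and the protease Ctsd from 2119, 2142 and 2493 to 813, 869 and 1671 CPM (log2 -1.01 ± 0.23, adjusted p = 0.00239). Libraries 1 and 2 of the Smad3 floxed group were well below library 3 in both genes. Cathepsin L (Ctsl) moved the other way, from 918, 1359.5 and 1272 to 3338, 3203 and 1766 CPM (log2 1.23 ± 0.22, adjusted p = 0.000245). Ctsb, Psap, Lgmn and Grn, all among the 10 genes with the largest difference in CPM, fell, with log2 changes of -0.76 ± 0.17, -0.86 ± 0.19, -0.85 ± 0.17 and -0.88 ± 0.21. Between the untreated knockouts the log2 differences of these 4 genes were -0.02, -0.03, -0.37 and -0.16, none called. Leaving out 1 library gave 10 to 18 members lower, and the 6 libraries alone gave 4.

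The macrophage label was checked on Adgre1, which encodes F4/80, at 9796, 11785 and 10929 CPM in the Smad2 floxed and 9780.0, 11326 and 15898 CPM in the Smad3 floxed libraries, and on Cd68, at 1418, 1748 and 1677 and 988, 1007 and 1548 CPM. Both were expressed in all 6 libraries. Of 19 macrophage identity genes tested, 3 were higher, 8 lower and 8 not called (median -0.28), so 57.9% were called beside 33.3% of all genes. Lysozyme (Lyz2), the gene whose promoter drives Cre in the knockout lines, went from 10965, 11684 and 11025 to 2771, 2548 and 6813 CPM (log2 -1.47 ± 0.38, adjusted p = 0.00595). The high-affinity IgG receptor Fcgr1 went from 1735, 2424 and 2271 to 833, 981 and 1511 CPM (log2 -0.95 ± 0.21, adjusted p = 0.00166), and the CSF-1 receptor Csf1r from 1753, 2285 and 1732 to 1270.4, 1112 and 1673 CPM (log2 -0.51 ± 0.17, adjusted p = 0.0248). Adgre1, Itgam, Mertk and Spi1 had log2 differences of 0.19, -0.20, -0.25 and -0.36 and were not called. The transcription factor Maf rose from 741, 722 and 722 to 1448, 1449 and 1268 CPM (log2 0.93 ± 0.14, adjusted p = 4.83e-05), and the monocyte gene Ly6c2 from 3.5, 2.01 and 2.59 to 16.5, 15.8 and 6.01 CPM (log2 2.23 ± 0.47, adjusted p = 0.00128). In such bulk RNA fewer cells of a type and less RNA per cell cannot be told apart. The identity list gave 4 lower without Smad2 floxed library 2 or Smad3 floxed library 2 and 5 lower without Smad3 floxed library 1.

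Some markers that define other marrow cells were at or near 0, while other members of these lists were expressed. The neutrophil list gave 2 higher and 0 lower of 9 tested, and its sum was 425 to 506 CPM in the Smad2 floxed and 311 to 449 CPM in the Smad3 floxed libraries, nearly all of it Csf3r, a receptor that macrophages also express. S100a8 and S100a9, which rose, reached 2.91 and 7.78 CPM at most, both in Smad3 floxed library 1 (7.78, 2.39 and 1.03 CPM for S100a9), and Ctsg was at 0 in all 6. Mast cell and basophil markers gave 0 higher and 1 lower of 1 tested, with 8 of 13 at 0 in all 6 libraries, Mcpt8 and Fcer1a among them. Dendritic cell markers gave 2 higher and 2 lower of 11 tested, so 36.4% were called beside 33.3% of all genes. Their sums were 1568 to 2378 CPM in the Smad2 floxed and 1029 to 1827 CPM in the Smad3 floxed libraries. Flt3 did not exceed 0.0519 CPM, and Xcr1 was 1 of the 2 called higher (log2 0.84). Lymphocyte markers gave 0 higher and 2 lower of 4 tested with sums of 163 to 245 CPM in the Smad2 floxed and 71.7 to 173 CPM in the Smad3 floxed libraries, most of it Ighm (log2 -0.91 ± 0.27), and Cd3e and Cd8a were at 0. Erythroid and megakaryocyte markers gave 0 higher and 2 lower of 5 tested with sums of 213 to 271 CPM in the Smad2 floxed and 90.9 to 176 CPM in the Smad3 floxed libraries, most of it Pf4. Of the few tested neutrophil, lymphocyte and erythroid markers, 22.2%, 50% and 40% were called, beside 33.3% of all genes.

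Fibroblast and endothelial markers gave 1 higher and 0 lower of 10 tested with sums of 113 to 143 CPM in the Smad2 floxed and 62.4 to 154 CPM in the Smad3 floxed libraries. This is 10% called, below the 33.3% of all genes. The called one was Vwf, an endothelial clotting factor, at 4.57, 7.47 and 7.42 against 14.5, 31.9 and 27.2 CPM (log2 1.92 ± 0.24, adjusted p = 4.21e-06), while Pdgfra, a fibroblast receptor, was at 0. Stem and progenitor markers gave 3 higher and 0 lower of 6 tested (Cd34, Cd48 and Slamf1) with sums of 87.5 to 137 CPM in the Smad2 floxed and 142 to 236 CPM in the Smad3 floxed libraries. This is 50% of only 6 genes, beside 33.3% of all genes. The part of such other cells in the results above and below was not tested.

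RNAs retained in the nucleus were highest in Smad3 floxed libraries 1 and 2. The list gave 5 higher and 0 lower of 9 tested (median 1.06), so 55.6% were called beside 33.3% of all genes. Neat1, the scaffold of paraspeckles, was at 206, 141 and 189.7 CPM against 446, 499 and 169.5 CPM (log2 1.06 ± 0.28, adjusted p = 0.00729), and Malat1 at 1199, 911 and 1053 against 1976, 2692 and 1118 CPM (log2 0.87 ± 0.30, adjusted p = 0.028). For both, library 3 lay inside the Smad2 floxed range. Xist and Kcnq1ot1 rose by 1.27 ± 0.45 and 1.40 ± 0.51. With 1 library left out, the list gave 0 higher without Smad3 floxed library 2, 1 higher without Smad3 floxed library 1 and 2 higher without Smad2 floxed library 2 or 3. No member was called in the 6 libraries alone, and none of the 5 was called higher between the treated floxed groups. Of all genes called higher between the untreated floxed groups, 55.2% were called higher between the treated ones. The part of RNA quality was not tested.

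Scavenger and efferocytosis receptors, which take up modified lipoproteins and dead cells, changed in both directions, with 7 higher, 7 lower and 5 not called of 19 (median 0.02). This is 73.7% called, beside 33.3% of all genes. Marco rose from 196, 260.4 and 313 to 647, 1228 and 786 CPM (log2 1.79 ± 0.28, adjusted p = 7.31e-05) and Msr1 from 198, 138 and 178 to 398, 561 and 233 CPM (log2 1.21 ± 0.31, adjusted p = 0.0055). Trem2 fell from 315, 410.0 and 348 to 154, 111 and 157 CPM (log2 -1.35 ± 0.23, adjusted p = 0.000171). The bridging molecules Mfge8, Gas6 and Pros1, which link dying cells to phagocytes, changed by -1.15 ± 0.28, -0.74 ± 0.20 and -1.0 ± 0.23, all called lower. Of 18 complement genes 5 were higher and 5 lower (median -0.24), so 55.6% were called. C1qb fell from 2756, 4109 and 3099.6 to 1666, 1524 and 2670.5 CPM (log2 -0.77 ± 0.19, adjusted p = 0.00468), and the C5a receptor C5ar1 rose by 0.57 ± 0.13. With 1 library left out, the complement list gave 2 higher without Smad2 floxed library 2 or 3 or Smad3 floxed library 1 or 2 and 3 lower without Smad2 floxed library 2 or Smad3 floxed library 1 or 2.

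Class I MHC genes, which present peptides to cytotoxic T cells, gave 3 higher, 2 lower and 10 not called of 15 (median -0.30), so 33.3% were called, the same share as over all genes. H2-Q7 rose from 49.5, 84.5 and 77.7 to 419, 347 and 312 CPM (log2 2.35 ± 0.20, adjusted p = 3.8e-08) and its neighbour H2-Q6 by 2.52 ± 0.22. These close paralogs may share reads, and the classical H2-K1 and H2-D1 had log2 differences of -0.14 and -0.17, not called. Class I gave 6 lower without Smad2 floxed library 1 and 9 lower without Smad3 floxed library 3. In class II, 1 rose, 3 fell and 9 were not called of 13 (median -0.45), so 30.8% were called beside 33.3% of all genes. The peptide-loading gene H2-DMa fell from 12.8, 13 and 13.7 to 3.11, 2.84 and 4.93 CPM (log2 -1.86 ± 0.22, adjusted p = 3.32e-06), while H2-Ab1 and Cd74 had log2 differences of 0.74 and 0.39, not called.

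Cholesterol synthesis genes showed how far library 3 differed. With all libraries 6 of 20 fell and none rose (median -0.51), so 30% were called beside 33.3% of all genes. Acat2, which joins acetyl units at the start of the pathway, was at 31.3, 35 and 24.5 CPM in the Smad2 floxed and 7.7, 8.51 and 26 CPM in the Smad3 floxed libraries (log2 -1.11 ± 0.39, adjusted p = 0.0348), so that library 3 lay inside the Smad2 floxed range and libraries 1 and 2 far below it. With 1 library left out, the list gave 0 lower without Smad3 floxed library 1, 1 lower without Smad2 floxed library 2 or Smad3 floxed library 2 and 17 lower without Smad3 floxed library 3. Lipid efflux and fatty acid genes gave 3 higher and 6 lower of 20 (median -0.45), so 45% were called. Lipoprotein lipase (Lpl) fell from 2118, 1968 and 2002 to 1206, 389.5 and 491 CPM (log2 -1.54 ± 0.33, adjusted p = 0.00139), and the fatty acid binding protein Fabp4 rose by 1.78 ± 0.31. This list gave 1 higher without Smad2 floxed library 2 or Smad3 floxed library 1, 3 lower without Smad2 floxed library 2 and 10 lower without Smad3 floxed library 3.

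Matrix remodelling genes included several large rises: 6 of 20 were higher and 4 lower (median 0.36), so 50% were called beside 33.3% of all genes. The aggrecan-cleaving protease Adamts4 went from 22.4, 34.7 and 45.3 to 537, 512 and 294 CPM (log2 3.72 ± 0.30, adjusted p = 2.84e-08). The metalloproteinases Mmp12, Mmp13 and Mmp9 rose by 2.32 ± 0.36, 2.44 ± 0.51 and 1.65 ± 0.43, while Mmp2 (log2 -1.17 ± 0.37), Mmp19 (log2 -0.53 ± 0.19) and the inhibitor Timp2 (log2 -1.16 ± 0.28) fell. Among osteoclast and fusion genes 3 rose and 3 fell of 10 (60% called, median 0.20), with Ctsk at 1.01 ± 0.21 and Acp5 at -1.52 ± 0.40. Alternative activation genes gave 3 higher and 3 lower of 15 (median -0.07), so 40% were called beside 33.3% of all genes. Arginase 1 (Arg1) rose from 1.87, 3.12 and 1.82 to 108, 51.5 and 7.65 CPM (log2 4.62 ± 0.77, adjusted p = 0.000189), and Chil3 by 2.85 ± 0.56, while the lectin Clec10a fell (log2 -1.78 ± 0.40). Mrc1 and Il4ra had log2 differences of -0.28 and -0.07 and were not called. The matrix list gave 1 lower without Smad2 floxed library 2 or Smad3 floxed library 2 and 2 lower without Smad2 floxed library 3 or Smad3 floxed library 3, and the osteoclast list 1 higher without Smad3 floxed library 1.

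Of 39 interferon-induced genes 1 rose, 5 fell and 33 were not called, so 15.4% were called beside 33.3% of all genes (median -0.29). With 1 library left out, the list gave 1 lower without Smad2 floxed library 2 or Smad3 floxed library 1, 2 lower without Smad2 floxed library 3 or Smad3 floxed library 2, 11 lower without Smad3 floxed library 3 and 12 lower without Smad2 floxed library 1. Scaling by totals gave 9 lower. Single loci of innate immunity had larger differences. Ifi202b (ENSMUSG00000026535, chr1:173962568-173982744), a DNA-binding protein of the Ifi200 family, was at 0.159, 0.212 and 0 CPM in the Smad2 floxed and 178, 261 and 80.6 CPM in the Smad3 floxed libraries (log2 10.35 ± 1.76, adjusted p = 0.000332). None of the other 10 tested family members was called, and Aim2 and Ifi204 had log2 differences of -0.37 and -0.23. The gene stayed below 0.5 CPM in all 12 libraries of the Smad2 line, reached 204 CPM or more in the treated Smad3 floxed group, and was at 1.25, 87.9 and 104 CPM in the untreated MyS3KO libraries. In the Trim5 cluster of chromosome 7, 1 gene rose and 2 fell of 12, so 25% were called beside 33.3% of all genes. Trim34b went from 0.636, 0.794 and 0.519 to 17.4, 20.2 and 35 CPM (log2 5.21 ± 0.48, adjusted p = 1.14e-07), and its near copy Trim34a fell from 93.3, 109 and 120.1 to 56.6, 85.1 and 34.5 CPM (log2 -0.87 ± 0.23, adjusted p = 0.00655), a pair whose reads may be shared.

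Among inflammasome genes 3 were higher and 5 lower of 19 (median -0.39), so 42.1% were called beside 33.3% of all genes. The sensor Nlrp3 rose from 116, 146 and 158 to 342, 469 and 312 CPM (log2 1.42 ± 0.21, adjusted p = 3.42e-05), while the pore protein Gsdmd fell from 131, 173 and 169 to 73, 79.3 and 104 CPM (log2 -0.88 ± 0.17, adjusted p = 0.00043) and Naip5 fell (log2 -0.61 ± 0.16). The inflammasome list gave 5 higher without Smad3 floxed library 3, 2 lower without Smad3 floxed library 2, 3 lower without Smad2 floxed library 2 or 3 or Smad3 floxed library 1 and 9 lower without Smad3 floxed library 3. Of 12 tested genes listed as known to differ between inbred mouse strains, 3 were higher and 2 lower, so 41.7% were called beside 33.3% of all genes. Among them were Ifi202b, Klra2 (log2 1.06 ± 0.33), C4b (log2 -1.89 ± 0.44) and Gbp2b (log2 -2.89 ± 0.82). Both groups are labelled with the same strain. What part genetic background has in these values was not tested.

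Some genes were present in 1 group and all but absent in the other. By the rule of at least 1 CPM in all 3 libraries of 1 group and under 0.1 CPM in all 3 of the other, 7 genes were found in the Smad3 floxed libraries alone and 5 in the Smad2 floxed alone. The immunoglobulin segments Ighv14-1 (4.63, 31.6 and 24.9 CPM) and Ighv14-4 (3.31, 7.79 and 4.37 CPM) had no read in the Smad2 floxed libraries. If those 3 libraries had held 3 reads together, the difference would still be at least 415-fold for Ighv14-1 and 107-fold for Ighv14-4. Trophoblast glycoprotein (Tpbg, chr9:85842380-85847040) was at 6.14, 4.95 and 2.53 CPM against no read, at least 97.8-fold by the same reckoning. The others were the predicted genes Gm8210, Gm44075, Gm30873 and Gm43305. In the other direction, Hpgd, the enzyme that degrades prostaglandins, was at 2.27, 1.75 and 1.3 CPM in the Smad2 floxed and 0.0798, 0 and 0.0469 CPM in the Smad3 floxed libraries (log2 -5.17 ± 0.82, adjusted p = 7.9e-05). Carboxypeptidase E (Cpe, log2 -4.48 ± 0.79), Abhd14b (log2 -4.77 ± 0.76), Gm12551 and Gm10693 showed the same pattern. Hpgd was not low in the knockout of that line, with 0.715, 5.03 and 3.83 CPM in untreated MyS3KO.

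Among genes with at least 5 CPM in the higher group, no overlap and an established name, the 12 largest rises also held Gipr, the receptor of the gut hormone GIP (0.159, 0 and 0.0519 against 29.4, 14.5 and 1.88 CPM, log2 7.51 ± 1.05, adjusted p = 2.48e-05), and podoplanin (Pdpn, 0.835, 0.688 and 0.726 against 27.2, 20.1 and 9.15 CPM, log2 4.63 ± 0.78, adjusted p = 0.000172). Dixdc1, a Wnt pathway gene, Lancl3, Rims2 and Hmga1b rose by 5.96 ± 0.55, 5.63 ± 0.53, 5.08 ± 1.13 and 5.0 ± 0.40. Rims2 was uneven, at 0.159, 0.424 and 0.259 CPM against 10.7, 0.585 and 16.9 CPM, so Smad3 floxed library 2 was near the Smad2 floxed level. In the TGF-β1-treated Smad3 floxed libraries it was at 9.92, 0.484 and 18.2 CPM. The 12 deepest falls held the receptor Pira2 (21.3, 28.4 and 28.7 against 1.48, 1.67 and 1.69 CPM, log2 -4.02 ± 0.29, adjusted p = 2.41e-09) and Cyp4f18, a cytochrome that hydroxylates leukotriene B4 in mice (19.9, 30.3 and 19.5 against 4.07, 0.315 and 0.282 CPM, log2 -3.85 ± 0.63, adjusted p = 0.000146). The X-linked ubiquitin ligase Mid1 fell from 138, 242 and 189.9 to 16.2, 28.9 and 25.5 CPM (log2 -3.01 ± 0.36, adjusted p = 4.37e-06) and the secreted Wfdc17 from 589, 379 and 521 to 19.7, 30.4 and 155 CPM (log2 -2.86 ± 0.63, adjusted p = 0.00212). Nptx1, Chaf1b, Gprc5c, Il12rb1, Eps8l1, Aldh1b1 and Egr3 had log2 changes between -3.56 and -2.74.

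Within the Smad3 floxed group, 9 genes were at 5 CPM or more in 1 library and under 0.5 CPM in another. Nlrp1a, an inflammasome sensor on chromosome 11, was at 0, 0 and 12.9 CPM in Smad3 floxed libraries 1, 2 and 3 and at 19.9, 20.7 and 21.1 CPM in the Smad2 floxed libraries. In Smad3 floxed libraries treated with TGF-β1 it was at 0, 0.044 and 9.0 CPM, so the library numbered 3 was again the one with reads. Trim12a on chromosome 7 did the reverse, at 46.6, 73.1 and 0.422 CPM untreated and 38.7, 47.7 and 0.839 CPM treated, and at 73.3, 49.4 and 80.8 CPM in the Smad2 floxed libraries. On the same chromosome, Trim5 (9.69, 13 and 0.0469 CPM), Gm16464 (4.27, 6.17 and 0 CPM) and Gvin1 (26, 39.1 and 0.0469 CPM) were also near 0 in library 3. Elavl4 was detected in library 2, at 0.0399, 14.6 and 0 CPM, and in the treated library of the same number, at 0, 4.79 and 0 CPM, but in all 3 untreated MyS3KO libraries, at 12.6, 6.75 and 7.29 CPM. The remaining 3 were U90926, Gm16185 and Gm12033. None of the 4 chromosome 7 genes was called between the groups (log2 -0.76, -0.82, -0.69 and -0.41), and in untreated MyS3KO they reached 0.715 CPM at most. By the same rule 2 genes varied within the Smad2 floxed group, the pseudogenes 9130208D14Rik (7.0, 0.477 and 1.56 CPM) and Gm11425 (0.119, 3.23 and 8.09 CPM). For genes such as these the mean of the Smad3 floxed group describes none of its libraries.

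Along the genome, called genes lay on chromosomes 1 to 19 and X, where they were between 29.7% and 36.3% of the tested genes of each, and they were 12 of the 26 tested mitochondrial genes (46.2%). In 255 windows of 10 Mb with at least 10 tested genes, the median share of genes called with at least a 2-fold change was 14.8%. The highest share was in chromosome 9 from 80 to 90 Mb (mm10), with 22 of 46 genes (47.8%), 21 of them higher. They included Tpbg, the anti-apoptotic Bcl2a1a (11.4, 8.63 and 13.5 against 70.7, 89.7 and 66.3 CPM, log2 2.75 ± 0.23, adjusted p = 1.77e-08), its close paralog Bcl2a1d (log2 1.07 ± 0.18), malic enzyme Me1 (log2 1.68 ± 0.23) and the SUMO protease Senp6 (20.9, 9.69 and 16 against 47.1, 53.8 and 40.0 CPM, log2 1.59 ± 0.25, adjusted p = 7.86e-05). Cep162 was the 1 of these that fell (log2 -1.64 ± 0.36). Smad3 lies on the same chromosome, and Tpbg starts 22.1 Mb from its start. The window that holds Smad3, 60 to 70 Mb, had 13 of 66 genes (19.7%). Next came chromosome 8 from 30 to 40 Mb with 11 of 24 (45.8%), among them Gsr, its neighbour Ubxn8 (log2 1.32 ± 0.17), the phosphatase Dusp4 (log2 2.44 ± 0.31) and Msr1, and chromosome 12 from 40 to 50 Mb with 4 of 10 (40%), among them Dock4 (log2 1.73 ± 0.33) and Ifrd1 (log2 1.25 ± 0.32). These windows were picked for their share, so it is a description.

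**Figure D4:**
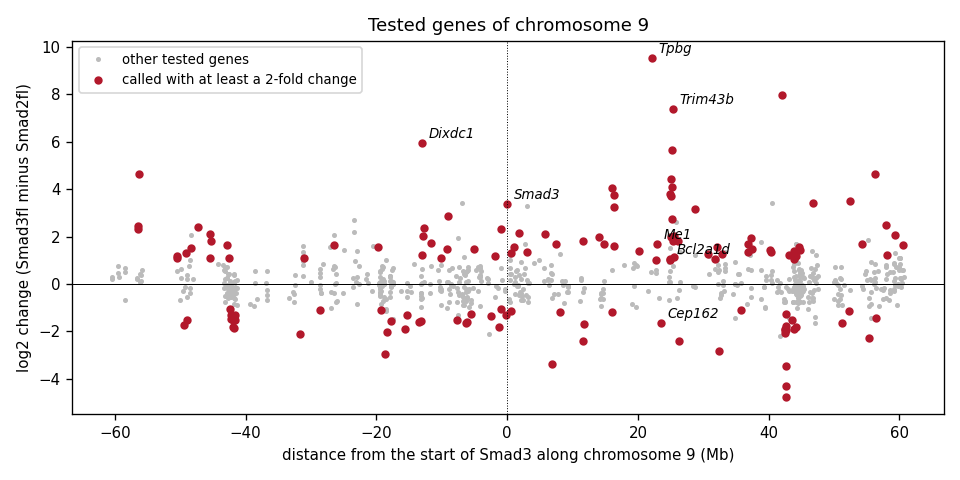
Log2 change of the tested genes of chromosome 9 (vertical axis) by the distance of their start from that of Smad3 (horizontal axis, Mb). Red points are called with at least a 2-fold change, and Tpbg, Trim43b, Bcl2a1d, Me1 and Cep162 belong to the window with the highest share, 22 of 46.

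The same line difference could be read in 3 further sets of libraries that share none with these 6. Between the TGF-β1-treated floxed groups 3604 genes were called (25.3%), between the untreated knockouts 850 (5.96%) and between the treated knockouts 954 (6.69%). Of the 2525 genes higher in untreated Smad3 floxed libraries, 1394 (55.2%) were also called higher under TGF-β1 (81.5% of the genes higher there, 12% of all tested genes), and 328 (13%) between the untreated knockouts (68.8% of the genes higher there, 3.34% of all). Of the 2229 lower genes, 1472 (66%) and 194 (8.7%) were called lower in these sets, against 13.3% and 2.62% of all genes. Same-numbered Smad3 floxed libraries with and without TGF-β1 shared on and off genes, and the labels do not say whether they came from the same animals.

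The untreated difference was then tested against the other 2. Between untreated and treated floxed libraries no gene's line difference differed at an adjusted p under 0.05 (edgeR quasi-likelihood test), with 457 (3.2%) at an unadjusted p under 0.05 and 10 by DESeq2. Because same-numbered untreated and treated Smad3 floxed libraries deviated together, a fit that blocks on the number inside every genotype was added after seeing the data, and it called 17 genes (0.119%). Of these, 13 were also called between the untreated floxed groups, as were 33.3% of all genes. That comparison is 1 arm of this difference, so the count is a description. Hk2 was one of the 13, with an untreated difference larger by 0.83 on the log2 scale (adjusted p = 0.022, edgeR). Between floxed and knockout libraries, both untreated, the line difference differed for 676 genes (4.74%), of which 392 (2.75%) were more positive and 284 (1.99%) more negative in the floxed libraries. DESeq2 called 1195, and leaving out 1 library gave 239 genes (without Smad3 floxed library 2) to 1936 (without Smad3 floxed library 3), with 442, 415 and 356 without Smad2 floxed library 1, Smad2 floxed library 2 or Smad3 floxed library 1. Cxcl1 had a difference of 6.67 between floxed and 2.20 between knockout groups, Ptgs2 3.50 and 0.29, Arg1 4.62 and -0.44, and Lamp1 -1.12 and -0.06. Called in the same direction in all 4 sets were 173 genes that were higher and 96 that were lower. Besides Smad3 they included Ifi202b, Ighv14-1, Trim34b, Lancl3, Hmga1b and Tpbg on the higher side and Pira2, Mid1, Chaf1b, Eps8l1 and Aldh1b1 on the lower. Mid1 changed by -3.01 here and by -5.19 between untreated knockouts.

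**Figure D5:**
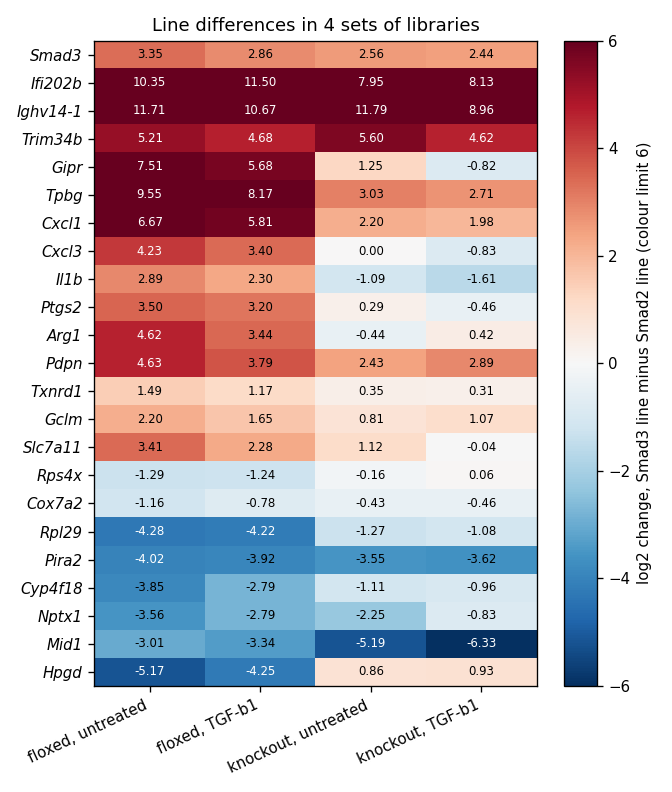
Log2 difference of the Smad3 line from the Smad2 line for 23 genes (rows) in 4 sets of libraries (columns), with the value in each cell and colour capped at 6 either way. Ifi202b, Ighv14-1, Trim34b and Pira2 stand at 7.95, 11.79, 5.6 and -3.55 between the untreated knockouts, while Cxcl3, Ptgs2 and Arg1 go from 4.23, 3.50 and 4.62 to 0.00, 0.29 and -0.44.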

How the data were processed

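PolyA RNA libraries (NEBNext Ultra kit, paired reads, per the labels' protocols) were quantified upstream with TopHat2 2.0.9, HTSeq 0.6.1 and Cufflinks 2.1.1 on mm10, per the submitters' processing notes. How strand and multiply mapped reads were handled is not given in those notes, so reads of paralogs, overlapping and antisense genes may be shared. The authors deposited raw counts per gene and FPKM values for 24 libraries, 8 groups of 3. The deposited FPKM equals the count divided by library total and 1 length per gene in 100% of 15889 genes (within 0.1%), and was used only to compare Smad genes per length.

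Counts were tested with edgeR 4.0.16 (quasi-likelihood, TMM scaling, edgeR's filter on low counts by group, which left 14261 of 54532 genes, 26189 of them without a read), in 1 fit of 8 groups with 16 residual degrees of freedom and no covariate, Benjamini-Hochberg adjustment over all tested genes and a threshold of 0.05. The median biological coefficient of variation was 21.3%. CPM were computed from the counts with TMM factors, and errors of log2 changes are standard errors. The test was run on simulated counts first. Alternatives were DESeq2 1.42.0, other scalings, no filter, a block for library number, the 6 libraries alone and each library left out.

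Named genes are SMAD and receptor genes, the 12 largest rises and falls and the 10 largest CPM differences among called, non-overlapping genes with a mean of at least 5 CPM in the higher group and an established symbol, on and off genes as defined above, up to 6 called members per list, and genes called with a 2-fold change in the 3 windows with the highest share; uncalled list members are given for contrast. The groups, the lists and this rule were chosen with earlier results of these data known. The labels mention 8 cDNA libraries while 24 samples are listed, and number libraries 1 to 3 in each group. Same-numbered untreated and treated Smad3 floxed libraries deviated together (correlation across genes 0.45, 0.34 and 0.33), while Smad2 floxed ones did so less (0.05, 0.13 and 0.16). The block for the library number across all groups, which left their comparison at 0 genes, does not take up such a pairing, and a block within each genotype, which leaves 8 residual degrees of freedom, was added for it. The 6 libraries held 21039742 to 24918582 reads. Errors and p-values rest on the spread between libraries within groups, which the main fit shares over all 8 groups. Promoters are RefSeq's. Symbols shared by several identifiers (100) were kept apart by identifier.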

Additional observations from a re-analysis of the deposited data

Results flagged for a closer look

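For 64 of the 275 genes followed here, the line difference between the untreated floxed groups differed from that between the untreated knockout groups, by edgeR's quasi-likelihood test of the difference itself at an adjusted p of 0.05, as for 676 of all 14261 genes (4.74%). Most genes followed were named because they were called between the untreated floxed groups, which is 1 arm of this difference. Each value below is the floxed log2 difference minus the knockout one, so a positive value means that the Smad3 line stood higher, relative to the Smad2 line, in the floxed than in the knockout libraries.

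Among inflammatory genes the values were 4.47 for Cxcl1, 3.31 for Cxcl2, 4.22 for Cxcl3, 6.05 for Il1a, 3.97 for Il1b, 3.21 for Ptgs2, 2.98 for Ptges and 1.74 for Nlrp3. Matrix, receptor and polarisation genes gave 2.62 for Adamts4, 3.61 for Ltbp2, 2.36 for Mmp9, 2.76 for Thbs1, 5.06 for Arg1 and -2.36 for Gprc5c. Antioxidant, iron and stress genes gave 1.91 for Gclc, 1.39 for Gclm, 2.01 for Gsr, 1.14 for Txnrd1, 2.29 for Slc7a11, 1.42 for Sqstm1, 1.49 for Slc40a1, 1.42 for Ero1l, 1.45 for Trib3, 1.80 for Gadd45a and -0.89 for Hspa8. Cell cycle, early response and clock genes gave 1.76 for Cdkn2b, 1.88 for Myc, 1.38 for Bhlhe40, 1.6 for Ciart, 0.99 for Per1 and 1.73 for Dusp4. Genes of the ribosome and of mitochondria had negative values, -3.01 for Rpl29, -1.64 for Rplp0, -1.13 for Rps4x, -0.73 for Cox7a2, -0.83 for Ndufa4, -0.86 for mt-Co1, -0.89 for mt-Cytb, -0.91 for mt-Nd4, -1.64 for mt-Nd4l and -0.88 for mt-Nd5. Lysosomal and lipid genes were negative as well, -1.05 for Glb1, -1.09 for Hexa, -1.06 for Lamp1, -2.22 for Lyz1, -1.52 for Acaca and -1.36 for Hmgcs1. MHC and innate immune genes gave -1.47 for H2-DMa, 1.66 for H2-Q6, 1.43 for H2-Q7, -0.96 for Naip6, 1.17 for Bcl2a1a, 10.20 for Trim12a, 7.08 for Trim5 and 6.18 for Gvin1. The last 3 and Gm16464 (6.46) were near 0 in all MyS3KO libraries. The remaining values were 0.80 for Smad3, 2.18 for Mid1, 6.52 for Tpbg, -6.03 for Hpgd, -3.54 for Abhd14b, -1.14 for Dctn6, 1.18 for Ubxn8 and 3.59 for Gm43305. For Smad3 and Mid1 the sign of the line difference was the same in both kinds of library.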

How the results depend on the processing

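Scaling with DESeq2's size factors called 4767 genes in place of 4754, library totals 4671, no filter on low counts 4739 and DESeq2 5057, while the 6 libraries alone called 2212 (1176 higher, 1036 lower). Leaving out 1 library called 2723 (without Smad3 floxed library 2) to 5940 (without Smad3 floxed library 3) genes, of which 1459 to 3055 were higher and 1264 to 2885 lower, and without Smad2 floxed library 2 it called 3111. The difference between untreated and treated line differences, with no gene called, gave 22 genes with no filter, 10 with DESeq2, 17 with a replicate block within each genotype (added after seeing the data) and 0 to 3 with 1 library left out. That between floxed and knockout line differences, with 676, gave 1240 with no filter, 1195 with DESeq2 and 239 to 1936 with 1 library left out, lowest without Smad3 floxed library 2 and highest without library 3. The cause of these shifts was not tested. A block for the library number called 4801 genes. The numbers do not pair the lines (correlation of same-numbered deviations across genes 0.19, -0.28 and -0.03). Of 275 named genes, 257 of them called, no call reversed its direction where the gene was tested. Single genes were not followed without the filter, DESeq2 gave all but 1 a value, and the fit of 6 libraries covered 257. Calls were lost for 73 in the 6 libraries alone, 68 at most with 1 library left out, and 8 at most under the scalings, the block or DESeq2. The list counts under these settings were added after seeing the data. With 3 libraries a group, 1 of them apart, differences among genes of a few CPM are the least certain, and intervals cover only the spread between libraries.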

Other observations

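Early response and clock genes split by member. Of 20 immediate early genes 5 were higher and 5 lower (median -0.16), so 50% were called beside 33.3% of all genes. The growth factor response genes Egr1, Egr2 and Egr3 fell together, Egr1 from 21.2, 27.5 and 22 to 9.97, 8.73 and 9.76 CPM (log2 -1.31 ± 0.22), Egr2 with a log2 change of -1.20 ± 0.23 and Egr3 with -2.74 ± 0.46, and Klf2 fell from 9.27, 10.2 and 8.35 to 1.4, 1.71 and 4.04 CPM. Myc rose from 6.2, 6.2 and 9.23 to 30.7, 24.2 and 22.8 CPM (log2 1.85 ± 0.28), and Nr4a1 and Ier3 by 1.62 ± 0.28 and 1.26 ± 0.25. Of 16 clock genes 5 were higher and 2 lower (43.8% called, median 0.11), with the repressors Bhlhe40 (1.07, 1.38 and 0.985 against 5.7, 6.21 and 3.0 CPM, log2 2.12 ± 0.25) and Ciart (log2 1.57 ± 0.20) higher and Per3 lower (log2 -0.69 ± 0.22). Among 16 genes of p53 and growth arrest 4 were higher and 2 lower (median -0.11), so 37.5% were called beside 33.3% of all genes. Gadd45a was at a log2 of 1.43 ± 0.19 and Cdkn1a at -0.13, not called. DNA replication genes gave 0 higher and 2 lower of 22 (median -0.27) and mitosis genes 1 higher and 2 lower of 20 (median -0.57). These are 9.09% and 15% called, below the 33.3% of all genes.

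A stretch of neighbouring genes on chromosome 9, picked after its values were seen, was lower in the Smad3 floxed libraries. From Tlr9 (chr9:106222598-106226883, mm10) to Parp3 (chr9:106470322-106476949), 9 of 9 tested genes were called lower, beside 15.6% of all genes. Both ends were set with the values known, so this count is a description. The DNA sensor Tlr9 went from 405, 481 and 383 to 63.3, 68.6 and 171 CPM (log2 -2.07 ± 0.31), and Alas1, the first enzyme of heme synthesis, from 183, 221 and 193 to 48.5, 42.8 and 64.6 CPM (log2 -1.94 ± 0.26). For both, no Smad3 floxed library reached the Smad2 floxed range. Poc1a (log2 -1.88 ± 0.41), Dusp7 (log2 -1.76 ± 0.22), Rpl29, Abhd14a (log2 -3.47 ± 0.74), Abhd14b, Pcbp4 (log2 -1.95 ± 0.60) and Parp3 (log2 -1.28 ± 0.29) complete it, while the window of 100 to 110 Mb as a whole had 13 genes higher and 12 lower by at least 2-fold among 127. Abundant genes outside the lists that fell were Actb (cytoplasmic actin, 14737, 19727 and 17135 against 7864, 8333 and 14235 CPM, log2 -0.76 ± 0.21) and Itm2b (log2 -0.83 ± 0.18).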
